A study of Mus musculus with 188 samples.

Results

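The expression of 6 zinc-handling genes was followed through every labelled treatment, dose and time of the brain slice cultures: the metallothioneins Mt1, Mt2 and Mt3, the zinc-sensing transcription factor Mtf1, the zinc exporter Slc30a1 and the zinc importer Slc39a10. They were chosen by name through the Ensembl identifiers that map to these symbols. All 6 were found among the 25655 identifiers listed in batch 1 and among the 25528 listed in batches 2 and 3. All 6 passed the filter on low counts in both sets, with 15554 and 16473 genes tested.

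Metallothioneins are small cysteine-rich proteins that bind zinc and copper and buffer the free metal of the cell. Free zinc binds the transcription factor MTF-1, which then acts on metal response elements in the promoters of Mt1, Mt2 and Slc30a1. Mt1 and Mt2 are expressed in brain mainly by astrocytes and are also known to respond to glucocorticoids and to inflammatory signals, whereas Mt3 is the brain-enriched form and was first described as a neuronal growth inhibitor. Slc30a1 (ZnT1) moves zinc out of the cytosol across the plasma membrane, and Slc39a10 (ZIP10) moves it in.

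Coronal slices of C57BL/6J mouse brain, from male and female animals of 6 to 8 weeks, were cultured with 2 slices on each insert and exposed from day 7. Batch 1 held 6 groups of 10 libraries after 24 h: control, heme-albumin at 12.5, 50, 200 and 400 µM, and hemeHpx (heme bound to hemopexin) at 200 µM. Batches 2 and 3 held, at 24 h and 48 h, control (10 and 9 libraries), cell-free hemoglobin (Hb) at 200 and 400 µM (10 each), the hemoglobin-haptoglobin complex (HbHp) at 200 µM (8 and 8) and 400 µM (4 and 5), and haptoglobin alone (Hp) at 400 µM (12 and 11). The labels do not say which libraries came from separate animals, so p-values measure the spread between these libraries. No group of albumin or hemopexin alone was analysed here. All groups shared the serum-free medium with the N-2, B-27 Plus and G-5 supplements used from day 4, and the proteins added were human.

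Of 188 libraries, 167 could be assigned to a group, and their total counts ran from 11038484 to 54174784. Levels below are CPM, the counts of a library scaled to a common depth with TMM factors, and the 2 sets were normalized separately. The summed level of 8 astrocyte markers was 8337 to 12420 CPM in the batch 1 controls, against 529.8 to 692.3 CPM for 8 neuron markers. In bulk tissue, fewer cells of a type and less RNA per cell cannot be told apart. All HbHp and Hp libraries carried the label of batch 3, together with 4 of the 19 controls and 8 of the 40 Hb libraries. The prefix of the library name (E1 or E2, not explained in the labels) divided batches 2 and 3 further, and both were terms of the fit.

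The upstream sequences of the members with textbook metal response elements are shown because the results turn on Mt1, Mt2 and Slc30a1. Each is the 250 bases before the start that RefSeq annotates (GRCm38.p6, plus strand), at chr8:94178839-94179088 for Mt1, chr8:94172368-94172617 for Mt2 and chr1:191906531-191906780 for Slc30a1. Capitals mark the metal response element core, searched as TGCACNC or TGCGCNC on both strands.
Mt1: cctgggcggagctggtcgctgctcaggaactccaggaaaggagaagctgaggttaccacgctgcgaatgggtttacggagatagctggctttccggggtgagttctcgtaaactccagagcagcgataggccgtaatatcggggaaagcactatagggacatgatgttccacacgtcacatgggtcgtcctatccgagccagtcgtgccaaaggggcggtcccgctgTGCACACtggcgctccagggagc
Mt2: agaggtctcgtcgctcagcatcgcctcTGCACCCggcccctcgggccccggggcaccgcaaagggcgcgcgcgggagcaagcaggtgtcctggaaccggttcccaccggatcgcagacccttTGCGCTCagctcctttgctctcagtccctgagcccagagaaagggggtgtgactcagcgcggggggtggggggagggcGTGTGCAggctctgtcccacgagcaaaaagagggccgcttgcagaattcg
Slc30a1: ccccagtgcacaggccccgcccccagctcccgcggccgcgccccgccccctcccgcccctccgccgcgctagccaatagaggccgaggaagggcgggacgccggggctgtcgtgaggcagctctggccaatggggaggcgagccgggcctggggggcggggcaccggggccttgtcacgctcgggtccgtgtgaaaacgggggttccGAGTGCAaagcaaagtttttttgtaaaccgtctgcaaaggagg
The Mt1 window held 1 match, 23 to 17 bases before the annotated start, the Mt2 window 3 and the Slc30a1 window 1. These counts hold for the windows alone and do not rank the promoters. Bases after the annotated start were not searched, and the start that each gene uses in these slices was not tested. At least 1 match stood in 21.4% of all 32851 such windows and at least 3 in 1.26%. No match to these letters stood in the same windows of Mt3, Mtf1 or Slc39a10. The antioxidant response element core TGACNNNGC, which overlapped none of these matches, stood once in the Mt2 window and once in the Slc30a1 window, against 10.2% of all windows with at least 1.

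Per kilobase of annotated exon, Mt2 stood at 1274 CPM in the batch 1 controls, Mt1 at 677.5 and Mt3 at 303.7. Slc30a1 followed at 11.3 CPM per kilobase, Slc39a10 at 9.74 and Mtf1 at 5.54. Before division by exon length the order of Mt1 and Mt2 was the reverse, with means of 844.2 and 749.3 CPM. The annotated exons of Mt1 cover its whole gene span of 1246 bases, against 588 bases of exon for Mt2. Their order per kilobase thus depends on the annotation, and which transcript is the more abundant was not tested. The 3 metallothioneins lie side by side on chromosome 8 (GRCm38), Mt3 at 94152607-94154146, Mt2 at 94172664-94173568 and Mt1 at 94179082-94180327, all on the plus strand. Mt1 and Mt2 are close paralogs, and how the authors treated reads that match both is not given in the sources used here. Mt2 overlaps an antisense gene (Gm45774), Slc30a1 another (1700034H15Rik), and Mtf1 and Slc39a10 also overlap annotated genes, so reads in the overlaps are uncertain.

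The heme-albumin series asked how the slices respond to increasing heme. Mt1 and Mt2 fell with heme-albumin at 200 and 400 µM, Mt3 fell at 400 µM, and hemeHpx at 200 µM left none of the 6 members past the test against control. In the controls, Mt1 ran from 700.8 CPM (lowest) to 949.8 CPM (highest), with a median of 855.6. With heme-albumin at 200 µM it ran from 460.9 to 756.7 CPM with a median of 596.7, and 8 of 10 libraries lay below every control. At 400 µM it ran from 384.7 to 672.5 CPM with a median of 533.8, and all 10 libraries lay below every control. At 200 µM the log2 fold change of Mt1 was -0.45 (SE 0.08, edgeR adjusted p = 7.87e-05), so that the level fell by 26.8%. At 400 µM the log2 fold change of Mt1 was -0.65 (SE 0.08, edgeR adjusted p = 6.22e-09), a level that fell by 36.3%.

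The fold changes of Mt2 were smaller, a difference between the genes that was not tested. Its control libraries ran from 540.2 to 883.1 CPM with a median of 778.7, those with heme-albumin at 200 µM from 395.3 to 709.8 with a median of 583.7, and those at 400 µM from 343.9 to 699.4 with a median of 541.2. The groups overlapped, but all 10 libraries of each dose lay below the control median. The log2 fold change was -0.35 at 200 µM (SE 0.09, edgeR adjusted p = 0.00719) and -0.47 at 400 µM (SE 0.09, edgeR adjusted p = 7.2e-05). Mt3 ran from 279.8 to 400.6 CPM in the controls, with a median of 317.5, and from 192.6 to 343.4 CPM at 400 µM, with a median of 263.4, so that 6 of 10 libraries lay below every control. Its log2 fold change was -0.27 at 400 µM (SE 0.08, edgeR adjusted p = 0.00791). At 200 µM it was -0.06, with a 95% interval from -0.22 to 0.10.

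**Figure D1:**
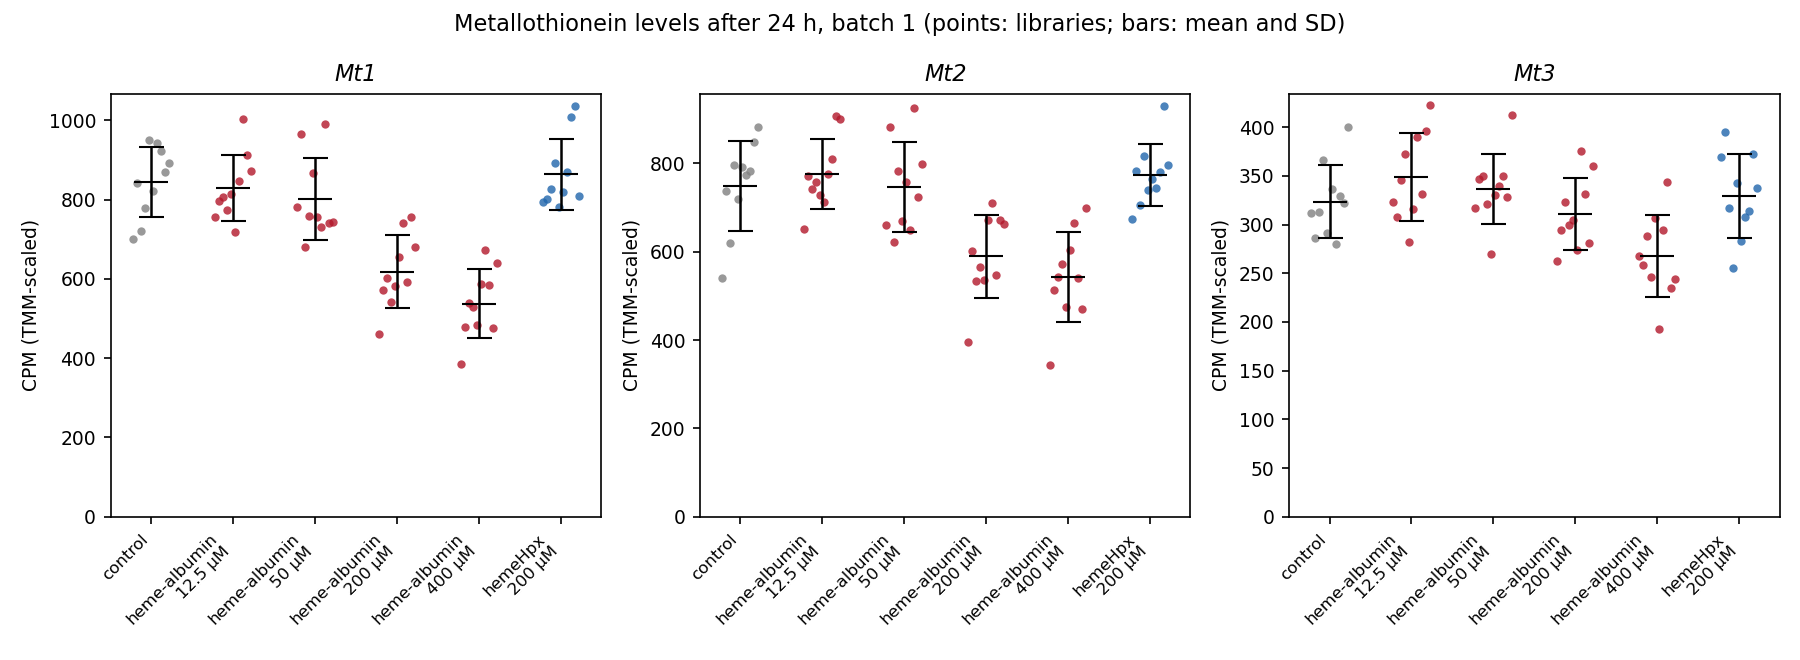
CPM of Mt1, Mt2 and Mt3 (vertical axis, linear from 0) in the 6 groups of batch 1 after 24 h, with 1 point per library and bars for mean and SD (n = 10 each). Mt1 with heme-albumin at 400 µM (384.7 to 672.5 CPM) lies below every control (700.8 to 949.8 CPM), whereas the hemeHpx libraries (780.2 to 1035 CPM) overlap the controls.

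Against control, 0 of 6 members passed the test at 12.5 µM, where 0.045% of all genes did, and 0 of 6 at 50 µM, where 0.463% did. At neither dose did a member have an unadjusted p under 0.05 in edgeR, and DESeq2 called 0. The number was 2 of 6 at 200 µM, both lower, with 13.6% of all genes called and 6.6% called lower. At 400 µM it was 4 of 6, 3 of them lower, with 29% of all genes called, 14.3% lower and 14.7% higher. The fourth was Mtf1, which rose by 0.10 on the log2 scale (SE 0.04, edgeR adjusted p = 0.0359) from a control median of 49.07 CPM (range 44.18 to 53.12) to 53.69 CPM (range 40.91 to 59.19). At 200 µM Mtf1 was not called (log2 fold change 0.10, edgeR adjusted p = 0.0943) and was called without replicate 8 of heme-albumin at 400 µM, which shares the fit (edgeR adjusted p = 0.0399).

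Between successive doses the only member call lay between 50 and 200 µM. Mt1 was 0.37 lower on the log2 scale at 200 than at 50 µM (log2 fold change -0.37, SE 0.08, edgeR adjusted p = 0.00978), and this was the 1 member of 6 called there, with 0.797% of all genes called and 0.366% called lower. Mt2 had a log2 fold change of -0.34 over the same step (SE 0.09), past the threshold in DESeq2 (adjusted p = 0.0246) and not in edgeR (adjusted p = 0.0531). From 12.5 to 50 µM 0 of 6 members were called, as were 0 of all genes, with 0 members at an unadjusted p under 0.05 and 0 called by DESeq2. From 200 to 400 µM edgeR and DESeq2 called 0 of 6, with 1.27% of all genes called. There Mt1 had a log2 fold change of -0.20 (95% interval -0.37 to -0.04) and Mt3 one of -0.22 (-0.38 to -0.05), the 2 members with an unadjusted p under 0.05. In the order of mean Mt1 levels, hemeHpx (863.4 ± 90.4 CPM, SD, n = 10), control (844.2 ± 88.7), 12.5 µM (829.5 ± 82.9) and 50 µM (801.4 ± 104.2) each differed from the next by less than the pooled SD. The gap from 50 µM to 200 µM (618.2 ± 91.3) exceeded it, and that from 200 to 400 µM (537.5 ± 86.5) did not. The Mt2 means gave the same single gap, from 747.4 ± 102.0 CPM at 50 µM to 589.7 ± 94.2 at 200 µM (SD, n = 10).

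Heme bound to hemopexin was set beside heme on albumin at the same 200 µM to ask what the scavenger changes. Mt1 with hemeHpx ran from 780.2 to 1035 CPM with a median of 822.9, and all 10 libraries lay above every heme-albumin library. Mt1 was 0.48 higher on the log2 scale (SE 0.08, edgeR adjusted p = 2.46e-05). Mt2 ran from 674.1 to 929 CPM with a median of 772.8, with 8 of 10 libraries above every heme-albumin library, and was 0.39 higher (SE 0.09, edgeR adjusted p = 0.0019). Slc39a10 was lower with hemeHpx, at 37.81 to 60.84 CPM (median 50.79) against 49.63 to 91.43 CPM (median 61.07), with a log2 fold change of -0.33 (SE 0.11, edgeR adjusted p = 0.0211). This call rested on 1 heme-albumin library, replicate 8 at 91.43 CPM, without which the log2 fold change was -0.26 (edgeR adjusted p = 0.0777). Mtf1 had a log2 fold change of -0.10 (SE 0.04, edgeR adjusted p = 0.04), a call lost after correction for GC content and length (adjusted p = 0.206). In all 4 of 6 members were called, 2 higher and 2 lower, with 25.9% of all genes called, 13% higher and 12.9% lower.

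Against control, hemeHpx gave 0 of 6 calls in edgeR and in DESeq2, with 8.2% of all genes called, and only Slc39a10 had an unadjusted p under 0.05 (log2 fold change -0.24, 95% interval -0.46 to -0.02, edgeR adjusted p = 0.124). The log2 fold change was 0.03 for Mt1 (95% interval -0.13 to 0.20) and 0.05 for Mt2 (-0.14 to 0.23). The comparisons with control share the same 10 control libraries, and the heme-albumin libraries of 200 µM enter both the comparison with control and that with hemeHpx. Slc30a1 was not called in any comparison of batch 1. Its medians ran from 55.61 CPM with hemeHpx to 60.66 CPM in the controls, and its intervals against control reached from -0.19 to 0.10 on the log2 scale over the 5 comparisons.

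**Figure D2:**
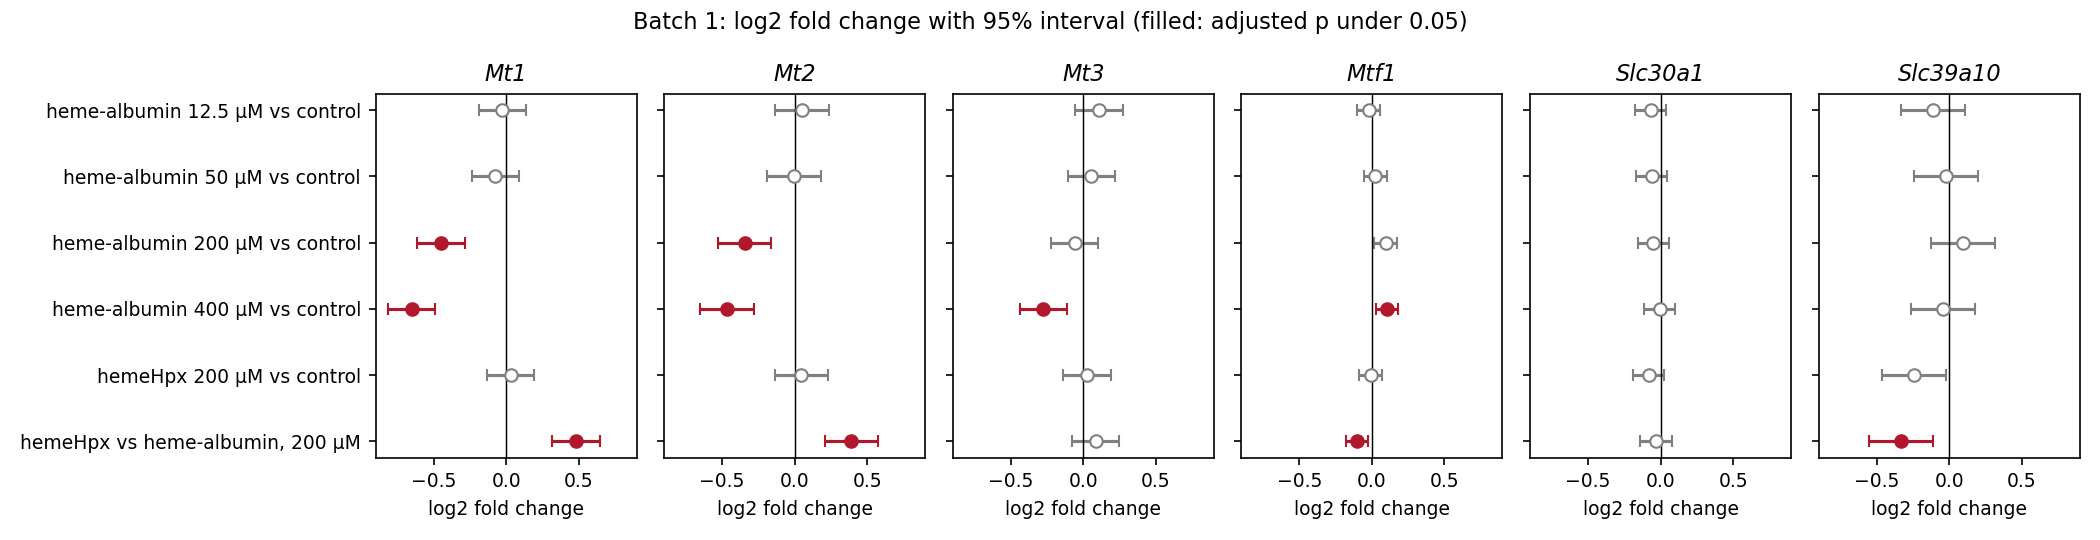
Log2 fold change (horizontal axis) of the 6 members in 6 comparisons of batch 1, with 95% intervals and filled points where the adjusted p was under 0.05. Mt1 and Mt2 lie to the left of 0 for heme-albumin at 200 and 400 µM (Mt1 -0.45 and -0.65) and to the right of it for hemeHpx against heme-albumin (Mt1 0.48).

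Other zinc transporters were counted with heme-albumin at 200 µM, where 13.6% of all genes were called and 6.6% were called lower. Of 8 further zinc exporters tested (Slc30a8 did not pass the filter), 0 rose and 2 fell, with a median log2 fold change of -0.07 against -0.01 over all genes. Slc30a10, a transporter known for manganese export, fell by 0.76 on the log2 scale, from a median of 3.31 to 1.92 CPM. Slc30a9, linked to mitochondrial zinc, fell by 0.11. Of 12 zinc importers (Slc39a5 did not pass), 2 rose and 2 fell (median 0.04). Slc39a12, a zinc importer enriched in brain, had a median of 18.44 CPM in the controls and 12.95 CPM with heme-albumin and fell by 0.73. Slc39a8, which also carries manganese and iron, fell by 0.54, while Slc39a4 rose by 0.50 and Slc39a6 by 0.33; Slc39a6 is named here after its value was seen, to complete the count. With hemeHpx against control 3 importers rose and 0 fell, namely Slc39a4 (0.52), Slc39a3 (0.36) and Slc39a11 (0.26), and 0 of 8 exporters passed in edgeR. Of all genes 8.2% were called in that comparison.

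Copper handling genes gave 3 higher and 1 lower of 13 with heme-albumin at 200 µM (median -0.02), with 13.6% of all genes called. The copper-zinc superoxide dismutase Sod1 rose by 0.40 (SE 0.06), with all controls at 126.2 to 164.8 CPM and all treated libraries at 176.9 to 217 CPM. Sco2 and Sco1, copper chaperones of cytochrome c oxidase, rose by 0.34 and 0.21 (Sco1 is named after its value was seen), and the copper exporter Atp7b fell by 0.37.

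Genes of the signals known to act on metallothioneins were counted in the same comparison, where 13.6% of all genes were called and 6.6% were called lower. Of 12 glucocorticoid-responsive genes, 6 fell and 1 rose (median -0.26, against -0.01 over all genes), with Plin4 (-1.42), Sult1a1 (-1.11) and Zbtb16 (-0.46) the most changed. The gene that rose was Cdkn1a (0.40), named after its value was seen. Of 12 acute phase and STAT3 response genes, 1 rose (Lif, 0.78) and 1 fell (Gfap, -0.34), with a median of 0.05. All 12 NRF2 targets rose (median 0.90), led by the iron exporter Slc40a1 (2.03), the cystine transporter Slc7a11 (1.54) and Osgin1 (1.37). With hemeHpx against control 0 of 12 glucocorticoid-responsive genes, 0 of 12 acute phase genes and 6 of 12 NRF2 targets passed. The share of all genes called there was 8.2%. Between hemeHpx and heme-albumin 6 glucocorticoid-responsive genes were higher and 0 lower with hemeHpx, with 25.9% of all genes called and 13% called higher. The part of these signals in the fall of Mt1 and Mt2 was not tested.

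Some astrocyte and most microglial markers fell with heme-albumin at 200 µM, as Mt1 and Mt2 did. There 13.6% of all genes were called and 6.6% were called lower. With heme-albumin at 200 µM 4 of 8 astrocyte markers fell and 0 rose (median -0.30), namely Slc1a2 (-0.53), Aqp4 (-0.53), Aldoc (-0.44) and Gfap. At 400 µM 6 of 8 fell (median -0.44), where 29% of all genes were called and 14.3% were called lower. Their summed level was 8337 to 12420 CPM in the controls, 6746 to 11290 at 200 µM, 5768 to 9820 at 400 µM and 9521 to 12100 with hemeHpx. Of 7 microglial markers 6 fell at 200 µM (median -0.83), with Cx3cr1 at -1.36 and Tmem119 at -1.08. Their sum was 425.7 to 1799 CPM in the controls (median 794.2) and 309 to 782.2 at 200 µM (median 554.1). At 400 µM it was 310.2 to 1025 CPM (median 602.5), so the median was not lower than at 200 µM. No marker of 8 for neurons passed the test in edgeR at 200 µM, and 1 of 7 for oligodendrocytes did, Olig2, which rose by 0.46. None of the 6 endothelial, 5 choroid plexus and ependymal or 6 meningeal fibroblast markers passed, with medians of -0.05, -0.82 and -0.69. Between hemeHpx and heme-albumin 4 of 8 astrocyte and 6 of 7 microglial markers were higher with hemeHpx and 0 lower. Of all genes 25.9% were called in that comparison and 13% were called higher. The part of these cell types in the fall of Mt1 and Mt2 was not tested.

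Mt1 and Mt2 followed each other from library to library. Across groups of at least 10 libraries, Pearson's r of their log2 CPM ran from 0.46 in Hp at 24 h to 0.95 in heme-albumin at 400 µM. In 12 of 13 groups r passed a two-sided permutation test with 100000 resamples after Benjamini-Hochberg adjustment over the 13 groups. Spearman's rho ran from 0.26 in the batch 1 controls (permutation adjusted p = 0.47) to 0.93 in heme-albumin at 400 µM and in Hb at 200 µM and 24 h (permutation adjusted p = 0.0024 for both), and it passed the same test in 7 of 13 groups. The relation rested on few libraries in some groups. Without the 2 libraries farthest from the median of Mt1, r fell from 0.69 to -0.19 in the batch 1 controls, from 0.71 to 0.10 in heme-albumin at 50 µM and from 0.82 to 0.25 in Hb at 400 µM and 24 h. It stayed at 0.89 in heme-albumin at 400 µM and 0.83 at 200 µM. The 2 genes share each library's depth and, as paralogs, possibly reads.

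**Figure D3:**
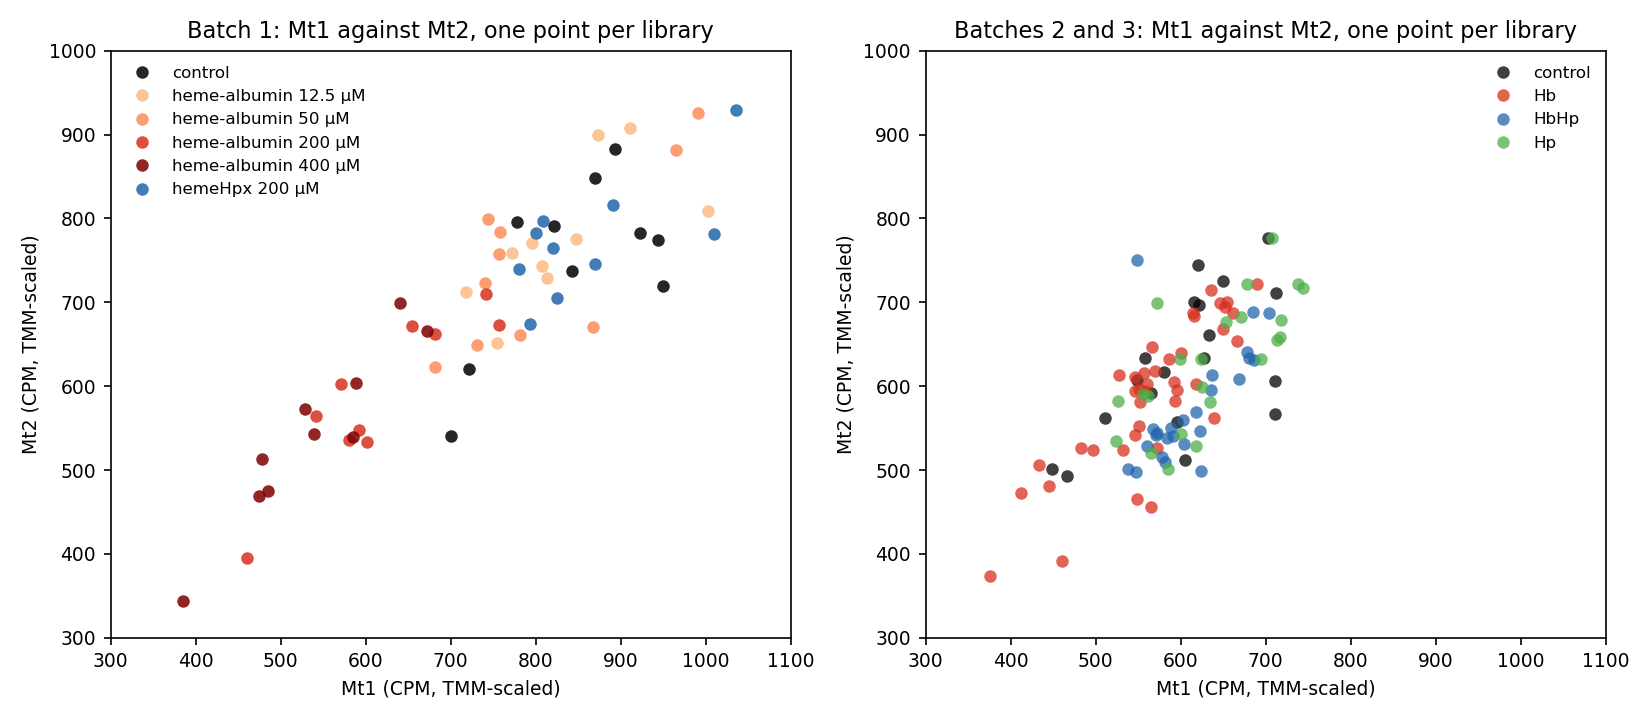
Mt2 against Mt1 (both in CPM, linear axes that start at 300), 1 point per library, for batch 1 (left, colored by group) and batches 2 and 3 (right, colored by treatment). The heme-albumin libraries of 200 and 400 µM sit at the low end of both genes in batch 1 (Mt1 384.7 to 756.7 CPM), and the treatments of batches 2 and 3 overlap.

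Over all libraries of a set, the genes whose pattern was most like that of a member were found by the smaller of its correlations in batch 1 and in batches 2 and 3 (batch and prefix removed), among 13886 genes. The points share depth and treatment, so these are descriptions. For Mt1 they were Mt2 (r = 0.91 and 0.84), Lgi4 (0.78 and 0.73) and Slc44a2 (0.81 and 0.69), and for Mt2 they were Mt1, Id3 (0.81 and 0.65) and Lgi4 (0.80 and 0.63). Mt3 was closest to Dbi (0.84 and 0.81), Ccdc74a (0.73 and 0.73) and Fbxo44 (0.71 and 0.78), and reached only 0.47 and 0.29 with Mt1. Slc39a10 was closest to Ext1 (0.88 and 0.80), Slc5a3 (0.80 and 0.80) and Sfxn1 (0.85 and 0.79), and Mtf1 to Prr14l (0.73 and 0.80) and Atg2b (0.70 and 0.70). Slc30a1 had the lowest values, with Clock (0.63 and 0.61), Rc3h1 (0.58 and 0.62) and Zbtb33 (0.65 and 0.57).

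In batches 2 and 3 Mt1, Mt2 and Mt3 were not called in any comparison with batch and prefix as terms. Without these terms Mt2 was called with HbHp at 400 µM and 48 h (log2 fold change -0.29, edgeR adjusted p = 0.0266, against -0.18 with them). At 24 h Mt1 had a median of 573.1 CPM in the controls (448.7 to 710.9), 546.4 CPM with Hb at 200 µM (433.6 to 661.7) and 558.6 CPM at 400 µM (375.5 to 618.4). At 48 h the medians were 622 CPM (558.2 to 711.6), 625.8 CPM (548.2 to 690.3) and 594.7 CPM (445 to 665.8). The groups overlapped throughout, although 4 of 10 libraries with Hb at 400 µM and 48 h lay below every control. At 48 h and 400 µM Hb, Mt1 had a log2 fold change of -0.16 (95% interval -0.30 to -0.02, edgeR adjusted p = 0.568) and Mt2 one of -0.15 (-0.31 to 0.01, edgeR adjusted p = 0.757). Of 24 tests of members over the 4 comparisons of Hb with control, edgeR and DESeq2 called 0, and 3 had an unadjusted p under 0.05. These were Mt1, Slc30a1 and Slc39a10 with Hb at 400 µM and 48 h. For Slc30a1, 10 of 10 libraries lay below the control median there. All genes were called at 0.0971% for 200 µM and 0.522% for 400 µM at 24 h, and at 0.31% and 0.601% at 48 h. The 2 sets were normalized separately, so heme and Hb were not tested against each other.

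With HbHp Mt1 ran from 538.7 to 684.7 CPM at 24 h and from 547.4 to 703.5 at 48 h over both doses, and 2 of the 13 libraries at 48 h and 0 of the 12 at 24 h lay below every control. Its largest difference from control was a log2 fold change of -0.18 at 400 µM and 48 h (95% interval -0.37 to 0.01). With Hp alone the Mt1 medians were 585.5 CPM at 24 h and 707.8 at 48 h, where 5 of 11 libraries lay above every control, and the adjusted log2 fold change was 0.02 (-0.14 to 0.17). In the order of mean Mt1 levels over the 12 groups, from Hp at 48 h (683.7 ± 55.3 CPM, SD, n = 11) to Hb at 400 µM and 24 h (534.9 ± 77.5, n = 10), no group differed from the next by more than the pooled SD. Mt3 at 400 µM HbHp and 24 h was 189.6, 197.6, 202 and 294.5 CPM, 3 libraries below every control and 1 within their range of 212.7 to 301.4, with a log2 fold change of -0.11 (-0.38 to 0.16). At 48 h it was 243.5, 277.8, 194.6, 215.7 and 259.7 CPM against controls from 223.8 to 354.5 (log2 fold change -0.18, 95% interval -0.44 to 0.08).

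**Figure D4:**
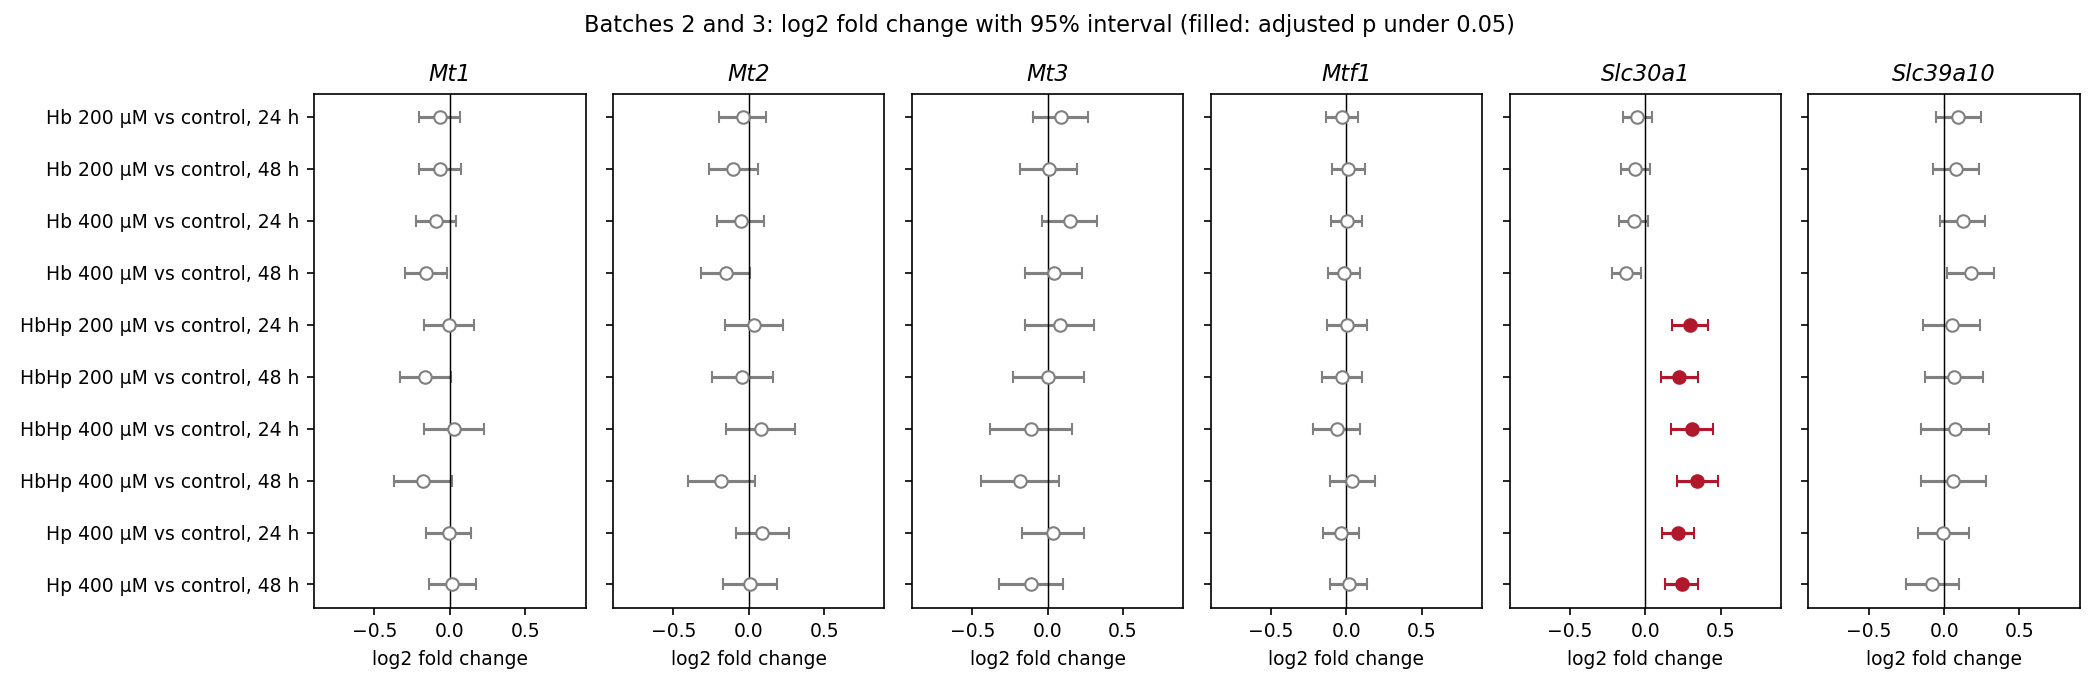
Log2 fold change (horizontal axis) of the 6 members against control of the same time in batches 2 and 3, with batch and prefix as terms, 95% intervals and filled points where the adjusted p was under 0.05. Slc30a1 alone is called, in the 4 HbHp comparisons (0.23 to 0.34) and the 2 Hp comparisons (0.22 and 0.24).

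Slc30a1, the zinc exporter, was the 1 member of 6 called with HbHp and with Hp, higher in all 6 comparisons with control, and this result depended on how batch 3 was handled. At 24 h its controls ran from 36.75 to 48.92 CPM with a median of 45.1, HbHp at 200 µM from 40.09 to 51.86 with a median of 47.87, and HbHp at 400 µM was 46.43, 49.5, 44.21 and 47.83 CPM. At 48 h the controls ran from 31.84 to 45.91 CPM with a median of 43.36, HbHp at 200 µM from 36.66 to 47.44 with a median of 41.67, and HbHp at 400 µM was 46.14, 43.27, 43.45, 42.65 and 49.41 CPM. Hp alone ran from 39.9 to 50.09 CPM at 24 h, with a median of 45.28, and from 37.96 to 49.28 CPM at 48 h, with a median of 42.46. As levels the groups overlapped. Below the control median lay 7 of 8 libraries with HbHp at 200 µM and 48 h, and 6 of 11 with Hp at 48 h. Above it lay 3 of 5 with HbHp at 400 µM and 48 h. At 24 h, 5 of 8 (HbHp 200 µM), 3 of 4 (HbHp 400 µM) and 7 of 12 (Hp) lay above it. The higher direction with HbHp at 200 µM and 48 h thus rests on how batch and prefix are handled.

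With batch and prefix as terms Slc30a1 was higher than control by 0.30 (SE 0.06, edgeR adjusted p = 0.00137) on the log2 scale with HbHp at 200 µM and 24 h, and by 0.23 (SE 0.06, edgeR adjusted p = 0.00909) at 48 h. At 400 µM the difference was 0.31 (SE 0.07, edgeR adjusted p = 0.00265) at 24 h and 0.34 (SE 0.07, edgeR adjusted p = 0.00015) at 48 h. With Hp alone it was 0.22 (edgeR adjusted p = 0.0361) at 24 h and 0.24 (edgeR adjusted p = 0.00301) at 48 h. The Hp call at 24 h was lost without control replicate 9 (edgeR adjusted p = 0.0812) or 10 (edgeR adjusted p = 0.117) of 24 h or control replicate 9 of 48 h (edgeR adjusted p = 0.0606), and without replicate 10 of Hb at 400 µM and 48 h (edgeR adjusted p = 0.0538). In these comparisons 1.93%, 11.9%, 5.15% and 11.9% of all genes were called for HbHp (200 µM at 24 h and 48 h, then 400 µM), and 0.704% and 10.8% for Hp. Called higher were 1.66%, 7.04%, 3.1% and 7.39% for HbHp and 0.474% and 4.88% for Hp. Against Hb of the same dose and time Slc30a1 was higher with HbHp, as 1 of 6 members each. The differences were 0.35 and 0.29 at 200 µM and 0.39 and 0.47 at 400 µM (24 h and 48 h). In the same order, 0.607%, 4.98%, 2.21% and 4.28% of all genes were called, and 0.413%, 3.14%, 1.18% and 2.84% were called higher. At 400 µM and 48 h the Slc30a1 levels of the Hb libraries themselves lay below the control median in 10 of 10. Between HbHp and Hp at 400 µM 0 of 12 tests passed in edgeR and in DESeq2, with 0.619% and 1.44% of all genes called and 1 member test at an unadjusted p under 0.05. There the interval for Slc30a1 was -0.03 to 0.22 at 24 h and -0.01 to 0.22 at 48 h.

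The batch term was itself large for this gene, at -0.22 for batch 3 against batch 2 (SE 0.04, edgeR adjusted p = 1.01e-06), where 17.2% of all genes were called. Within batch 3 the 12 control and Hb libraries ran from 29.04 to 44.97 CPM with a median of 36.62, and the 48 HbHp and Hp libraries from 36.66 to 51.86 with a median of 44.09. The 47 control and Hb libraries of batch 2 ran from 34.35 to 48.92 CPM with a median of 42.86. Fitted in batch 3 alone, Slc30a1 differed from control by 0.33 and 0.32 with HbHp at 200 µM (adjusted p = 0.0668 and 0.0728, 24 h and 48 h) and by 0.35 and 0.43 at 400 µM (adjusted p = 0.0635 and 0.0107). With no batch and no prefix term these values were 0.07, -0.0047, 0.08 and 0.11, and none was called in edgeR. For Hp against control, batch 3 alone gave 0.24 and 0.32 (adjusted p = 0.302 and 0.433), and the fit without terms 0.02 and 0.04 (adjusted p = 0.921 and 0.654). For HbHp against Hb, batch 3 alone gave 0.31 and 0.23 at 200 µM (adjusted p = 0.117 and 0.421) and 0.46 and 0.45 at 400 µM (adjusted p = 0.0175 and 0.0308). Without terms only the last of these was called (0.24, adjusted p = 0.0123). With the libraries of prefix E2 alone, HbHp against Hb at 200 µM and 24 h was not called (0.30, adjusted p = 0.981), and the other 3 were (0.41 at 200 µM and 48 h, 0.35 and 0.53 at 400 µM). Against control, prefix E2 alone gave 0.26 and 0.28 at 24 h, neither of them called (adjusted p = 0.154 and 0.132). Batch 3 held 2 controls at each time, 1 of each prefix. Thus 1 control per time shared both batch and prefix with the HbHp libraries. For Hb at 200 µM and 24 h, 0 libraries did. The fit takes the effects of batch and prefix to add on the log2 scale, which was not tested. The total counts of its 12 control and Hb libraries were 24549986 to 33740165, and those of the other 48 were 15587938 to 38839614.

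**Figure D5:**
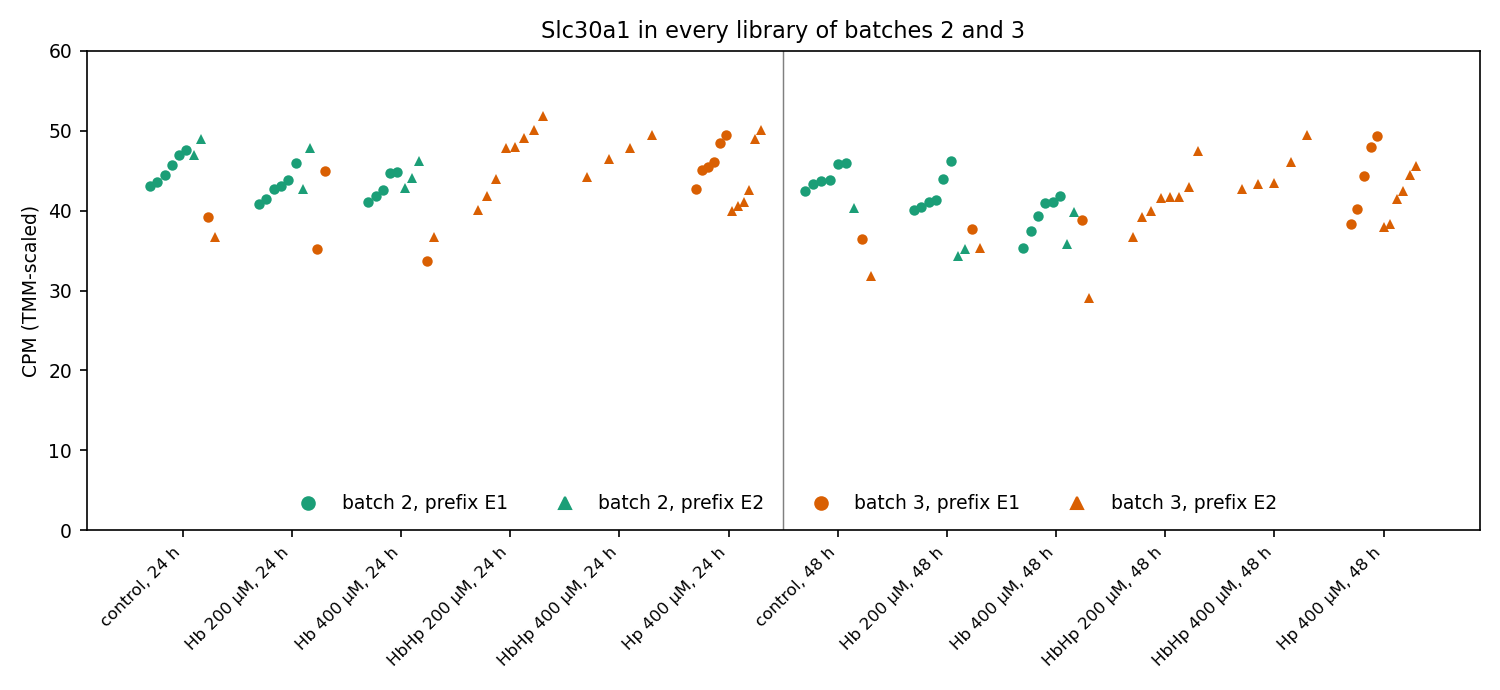
CPM of Slc30a1 (vertical axis, linear from 0) in each library of batches 2 and 3 by treatment, dose and time, with color for the batch and symbol for the prefix of the library name. The 12 control and Hb libraries of batch 3 (median 36.62 CPM) sit below most HbHp and Hp libraries of the same batch (median 44.09 CPM), and the batch 2 libraries have a median of 42.86 CPM.

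Slc39a10 showed how far the prefix reached. It was 0.45 lower on the log2 scale with prefix E2 than with E1 (log2 fold change -0.45, SE 0.04, edgeR adjusted p = 8.73e-17), a term for which 68% of all genes were called. HbHp libraries, all of prefix E2, ran from 39.2 to 50.78 CPM, and the controls of both times from 34.87 to 73.9 CPM. With the terms, the log2 fold changes of HbHp against control were 0.05 to 0.07, none of them called. Without them the value at 200 µM and 48 h was -0.35 (adjusted p = 0.0214). HbHp against Hb was then called for Slc39a10 as well, at 200 µM with -0.45 at 24 h (adjusted p = 0.00997) and -0.39 at 48 h (adjusted p = 0.0134), and at 400 µM and 48 h with -0.48 (adjusted p = 0.0123). Mtf1 ranged in its group medians only from 45.02 to 51.29 CPM over the 12 groups.

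Between 24 h and 48 h of control culture edgeR and DESeq2 called 0 of 6 members, with 4.5% of all genes called. Mt1 (0.18), Mt2 (0.21) and Mtf1 (-0.14) had an unadjusted p under 0.05, with edgeR adjusted p of 0.11, 0.114 and 0.128. Without replicate 1 of HbHp at 200 µM and 48 h, where Mtf1 stood at 24.87 CPM, Mtf1 was called (log2 fold change -0.14, edgeR adjusted p = 0.0156). The effect of treatment did not differ by time past the test for any member. In the 5 interactions edgeR and DESeq2 called 0 of 30 tests, 0 had an unadjusted p under 0.05, and 0.0121% and 0.0304% of all genes were called for HbHp at 200 and 400 µM, with 0 genes for Hb and Hp. The widest interval was that of Mt3 for HbHp at 400 µM (-0.41 to 0.26).

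Other genes of metal handling were counted with HbHp at 200 µM and 48 h, where 11.9% of all genes were called. Of 8 zinc exporters 2 rose and 0 fell, Slc30a4 (0.25) and Slc30a6 (0.17). The Slc30a4 libraries themselves had a lower median than the controls (55.52 against 63.99 CPM), so that its direction rests on the batch and prefix terms. Of 12 importers 1 fell, Slc39a14 (-0.31), a zinc and iron carrier, from a median of 127.3 to 115.1 CPM. Copper handling gave 2 higher, Sod1 (0.35) and the copper pump Atp7a (0.35), and 1 lower, Atp7b (-0.55), of 13. All 12 NRF2 targets rose (median 1.23), led by Nqo1 (1.87), Slc7a11 (1.73) and Slc40a1 (1.69). Of the glucocorticoid-responsive genes Dusp1 (0.49) and Cdkn1a (0.42) rose and Plin4 (-0.85) and Fkbp5 (-0.35, named after its value was seen) fell, and of the acute phase genes Socs3 (-0.47) fell. Of 8 astrocyte markers 1 fell, Aldh1l1 (-0.70). With Hb at 200 µM and 48 h 0 exporters and 0 importers passed in edgeR, and 1 of 13 copper genes did (Sod3, 0.59). There 10 of 12 NRF2 targets rose, among them Slc40a1 (1.09), Nqo1 (0.94) and Hmox1 (0.85), with 0.31% of all genes called. With Hp at 400 µM and 48 h 10 of 12 NRF2 targets, 4 of 12 glucocorticoid-responsive genes and 2 of 13 copper genes rose, and 0 zinc exporters or importers passed in edgeR, where 10.8% of all genes were called and 4.88% were called higher.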

How the data were processed

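Bulk mRNA libraries (TruSeq mRNA) of 188 slice cultures were used. For each library the authors deposited raw read counts per Ensembl gene, without normalization. The submitters' processing notes name featureCounts and GRCm39. The aligner, versions and strand setting are not given in the sources used here. Positions and exon lengths are from GENCODE on GRCm38, and upstream sequences from RefSeq (GRCm38.p6).

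Batch 1 (60 libraries) and batches 2 and 3 (107 libraries, with batch and name prefix as terms) were fitted separately in edgeR 4.0.16 (R 4.3.3), by the quasi-likelihood F test, with TMM factors. Low genes were dropped by filterByExpr with the groups given, a smallest count of 10 and a smallest total count of 15. The smallest count applies at the median depth and to as many libraries as the smallest group holds, not to every library. P-values were Benjamini-Hochberg adjusted over all genes, with a threshold of 0.05. Standard errors were derived from the fold change and F, and intervals are 95%. Permutation tests used Python 3.11.15. The fits were tested on simulated counts.

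The hemeHpx titles name haptoglobin. Their treatment tags and library names give hemopexin, which was followed. Labels of 21 libraries conflict, and these entered no comparison. Of these, 20 have titles naming haptoglobin with Hb and tags naming hemopexin with Hb (HbHpx), both at 400 µM, and 14 of the 20 have only Hpx in the library name. The other is a control with 2 times in its labels. The members, gene lists and marker lists were chosen with earlier results of these data known. Text names the 6 members, up to 3 genes per list with the largest change among those called in 4 comparisons (heme-albumin and hemeHpx at 200 µM, and Hb and HbHp at 200 µM and 48 h), and 3 genes most like each member, with exceptions marked. Some genes that meet this rule are not reported here. Alternatives were DESeq2 1.42.0, RLE scaling, other filters, a replicate block, a term for the letter of the library name, a GC and length correction, other batch and prefix terms, subsets of libraries and leaving out single libraries (7 of them chosen after seeing the data).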

Additional observations from a re-analysis of the deposited data

Results flagged for a closer look

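Single libraries stood far from the rest of their group, by Dixon's criterion at 95%, in 8 of 96 tests (6 members in 16 groups of 4 to 10 libraries), where chance gives about 4.8. The Mtf1 level of HbHp 200 µM 48 h replicate 1 was 24.87 CPM, against 46.73 for the next lowest. Mtf1 was also low in heme-albumin 400 µM replicate 8 (40.91 CPM) and high in Hb 200 µM 24 h replicate 10 (58.33 CPM). Mt3 was high in HbHp 400 µM 24 h replicate 4 (294.5 CPM). Slc30a1 was low in the batch 1 control replicate 2 (48.31 CPM) and in Hb 400 µM 48 h replicate 10 (29.04 CPM, a batch 3 library). Slc39a10 was low in heme-albumin 12.5 µM replicate 8 (37.19 CPM) and high in heme-albumin 200 µM replicate 8 (91.43 CPM).

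The 21 libraries of open condition held levels above those of all 19 controls of batches 2 and 3 for Slc39a10, with 8 libraries above 73.9 CPM and a highest value of 81.98 CPM, and for Mtf1, with 2 libraries above 54.54 CPM and a highest value of 55.73 CPM. Of the 21 libraries 20 belong to batch 3, and of the 19 controls 15 to batch 2. The TMM factors of the 21 came from all libraries of batches 2 and 3, those of the controls from the assigned libraries alone. The 21 libraries are not replicates of a known group, and no test was made.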

How the results depend on the processing

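Over all settings, 4247 of 4290 values of single members, called or not in the main fits, kept their direction and their side of the threshold. Against control, Slc30a1 with Hp was called in 18 of 28 alternatives at 24 h and 24 of 28 at 48 h. With HbHp it was called in 25 and 26 of 28 at 200 µM and in 24 and 26 of 27 at 400 µM. The falls of Mt1 and Mt2 with heme-albumin at 200 and 400 µM and their higher levels with hemeHpx against heme-albumin were called under every alternative run, with Mt1 from -0.48 to -0.43 at 200 µM and from -0.67 to -0.63 at 400 µM. Calls for the dose steps became 2 in place of 1 with DESeq2, with the replicate block, with the name letter as a term and with the GC and length correction, each time by adding Mt2. The replicate block, built on the name codes, moved 1 other count, Hp against control, to 1 in place of 2. Libraries with one code had deviations with a mean r of 0.186 in batch 1 and 0.0964 in batches 2 and 3. For libraries of different codes it was -0.015 and -0.00576. In batch 1, 101 of 169 same-code pairs had an r over 0.1. The main fits did not use the codes as a block, so a pairing that they may mark was not taken into account. Without batch and prefix terms HbHp against control gave 2 calls in place of 4, none of them Slc30a1, and Hp against control 0 in place of 2. Slc30a1 with HbHp at 200 µM and 48 h then turned to -0.0047 and Slc39a10 to -0.35. With prefix E2 alone these counts were 2 and 0, in batch 3 alone 1 and 0, with prefix E1 alone 0 for Hp, and with the batch term alone 1 for Hp. HbHp against Hb gave 2 in place of 4 in batch 3 alone and 3 with prefix E2 alone, where Slc30a1 at 200 µM and 24 h was lost (adjusted p = 0.981). Without the terms it gave 4, but with other members. Slc30a1 was called at 400 µM and 48 h alone. Slc39a10 was called in that same comparison (-0.48) and at 200 µM at 24 h (-0.45) and 48 h (-0.39). The correction for GC content gave 1 call in place of 0 between control times, Mtf1 (-0.11). Leaving out single libraries gave 1 to 2 calls for Hp, with Slc30a1 at 24 h lost without control replicates 9 (0.21, adjusted p = 0.0812) or 10 (0.20, adjusted p = 0.117) of 24 h or replicate 9 of 48 h (0.20, adjusted p = 0.0606). Fits without each of 7 libraries that stood apart for a member were added after seeing the data. They cost the calls of Slc39a10 between hemeHpx and heme-albumin (-0.26, adjusted p = 0.0777) and of Slc30a1 with Hp at 24 h (0.20, adjusted p = 0.0538), and added Mtf1 between control times, where the count ran from 0 to 1, and with heme-albumin at 200 µM. Fits within a batch or prefix had fewer libraries. Mt1 with Mt2 passed in 12 of 13 groups under RLE scaling and with a prior count of 2 as well.
The cause of these changes was not tested. The precision was limited by the 2 controls of batch 3 at each time and by the 4 and 5 libraries of HbHp at 400 µM. Only 1 control per time had both the batch and the prefix of the HbHp libraries.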

Other observations

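The labels of 21 libraries left their condition open (20 name Hb at 400 µM with haptoglobin in the title and hemopexin in the tag, and 1 is a control of open time). Of these libraries 20 belong to batch 3, whereas 15 of the 19 controls of batches 2 and 3 belong to batch 2, and the part of the batch in the values that follow was not tested. The TMM factors of the 21 came from all libraries of batches 2 and 3, those of the controls from the assigned libraries alone. For Slc30a1 the batch 3 term was -0.22 on the log2 scale (edgeR adjusted p = 1.01e-06), and the 12 control and Hb libraries of batch 3 ran from 29.04 to 44.97 CPM with a median of 36.62. Mt2 had a median of 461.1 CPM (299.4 to 613.1), with 12 libraries below the lowest control at 492.5 CPM. Slc30a1 had a median of 30.13 CPM (21.74 to 40.57), with 15 libraries below the lowest control at 31.84 CPM. Mt1 had a median of 487.8 CPM with 6 libraries below the lowest control, and Mt3 one of 216.8 CPM with 9 below.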
